A study of Mus musculus with 2 samples.

Results

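The urea cycle and the amino acid breakdown that feeds it were examined in the liver through 9 genes, *Cps1*, *Otc*, *Ass1*, *Asl*, *Arg1*, *Nags*, *Hal*, *Sds* and *Gls2*. They were chosen by symbol for their known roles, with earlier results of these data known. All 9 were found among the 53241 distinct gene symbols of the liver files. Liver mRNA was sequenced from 1 control library and 1 iFIRKO library. iFIRKO mice carry Adipoq-CreERT2 and Insr flox/flox, so that tamoxifen activates Cre under the adiponectin promoter and removes the insulin receptor gene in adipocytes, not in hepatocytes. The control sample is labelled WT, whereas the study's methods name IR flox/flox mice as controls. All mice were male, were 7 weeks old at the first of 5 daily tamoxifen doses of 100 mg/kg, and gave tissue 3 days after the final dose. Neither source states whether a library held the RNA of 1 mouse or of several, so nothing here has a replicate check.

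The urea cycle turns toxic ammonia into urea for excretion. It starts in the mitochondria of hepatocytes, where carbamoyl phosphate synthetase 1 and ornithine transcarbamylase act, and ends in the cytosol, where argininosuccinate synthase, argininosuccinate lyase and arginase act in turn. Its enzymes are most abundant in periportal hepatocytes, those nearest to the incoming portal blood, together with enzymes that release nitrogen from glutamine, serine and histidine. Glucagon, glucocorticoids and a protein-rich diet are known to raise many of these genes.

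The values were taken as normalized read counts, which the authors deposited as log2, and were returned to the linear scale. The files sum to 42003900 normalized reads in control and 41579630 in iFIRKO, an estimated 21139356 and 20655554 read pairs. The fold change is iFIRKO over control with a pseudocount of 4.18 normalized reads on both sides, a CPM (reads per 1000000) of 0.1. Intervals on single genes are exact Clopper-Pearson intervals at 95% on estimated read pairs. They cover counting error only and compare 2 libraries, not 2 genotypes. *Insr* had 4246 normalized reads in the control and 3692 in the iFIRKO liver, where the deletion is not directed. Its log2 fold change was -0.20, with an interval from -0.29 to -0.11. As liver samples, both libraries had abundant albumin (*Alb*), with 4167154 and 3944155 normalized reads.

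None of the 9 genes differed by more than 1.5-fold between the libraries, in either direction. Of the 13390 genes that reached a CPM of 1 (41.8 normalized reads) in at least 1 library, 4.46% were more than 1.5-fold higher in iFIRKO and 7.29% more than 1.5-fold lower. All 9 genes passed that minimum. Among the 1652 genes with at least as many reads on average as *Nags*, which had the fewest of the 9, 3.57% were higher and 3.63% lower, together 7.2%, against 11.7% in either direction over all tested genes. The median log2 fold change of the 9 genes was -0.14, beside 0.01 for all tested genes. The median absolute log2 fold change was 0.137 for the 9 genes and 0.144 for these 1652 genes. By counting error alone, 5 genes lay below no difference, 3 lay above it and 1 could not be told from it.

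**Figure D1:**
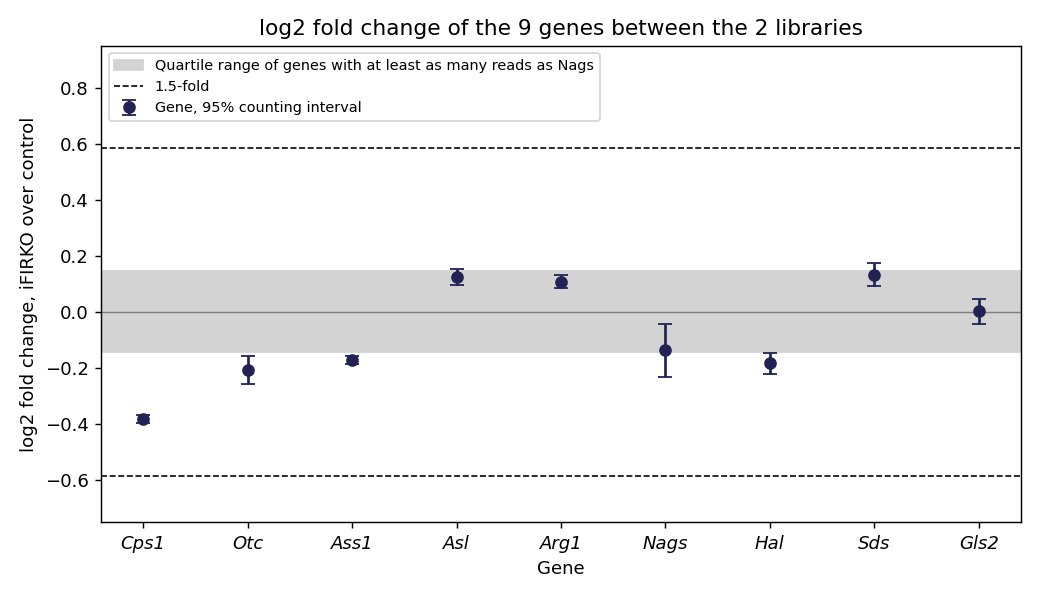
The log2 fold change of each gene, iFIRKO over control, with its 95% counting interval as the error bar. Dashed lines mark 1.5-fold, and the grey band runs from the lower to the upper quartile (-0.14 to 0.15) of the 1652 genes with at least as many reads as *Nags*. All 9 points lie between the dashed lines, and *Cps1* at -0.38 lies farthest from 0.

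The 3 genes of the mitochondrial steps all had fewer reads in the iFIRKO library, none by as much as 1.5-fold. *Cps1* (chromosome 1 of GRCm38, 67123026 to 67231259, forward strand, 38 exons) encodes carbamoyl phosphate synthetase 1, which makes carbamoyl phosphate from ammonia and bicarbonate and sets the pace of the cycle. *Cps1* had 187018 normalized reads in the control liver against 143505 in the iFIRKO liver (log2 fold change -0.38, interval -0.40 to -0.37). That is 23.3% fewer reads. Of the 1652 genes with at least as many reads as *Nags*, 15.3% had a larger absolute log2 fold change than *Cps1*. *Otc* (chromosome X, 10252305 to 10321024, forward strand, 10 exons) encodes ornithine transcarbamylase, which joins carbamoyl phosphate to ornithine to give citrulline. *Otc* had 14470 normalized reads in the control liver against 12531 in the iFIRKO liver (log2 fold change -0.21, interval -0.26 to -0.16). *Nags* (chromosome 11, 102145513 to 102149477, forward strand) encodes N-acetylglutamate synthase, whose product is the obligatory activator of carbamoyl phosphate synthetase 1. *Nags* had 3686 normalized reads in the control liver against 3352 in the iFIRKO liver (log2 fold change -0.14, interval -0.23 to -0.04). The interval of *Nags* was the widest of the 9, since it rested on 1855 and 1665 read pairs. Summed over these 3 genes, the reads were 22.3% fewer in iFIRKO, and *Cps1* supplied 91.2% of that sum in control.

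The cytosolic steps went both ways. *Ass1* (chromosome 2, 31470207 to 31520672, forward strand, 16 exons) encodes argininosuccinate synthase, which condenses citrulline with aspartate and brings in the remaining nitrogen of urea. *Ass1* had 166614 normalized reads in the control liver against 147965 in the iFIRKO liver (log2 fold change -0.17, interval -0.19 to -0.16). *Asl* (chromosome 5, 130011258 to 130029247, reverse strand, 16 exons) encodes argininosuccinate lyase, which splits argininosuccinate into arginine and fumarate. *Asl* had 36589 normalized reads in the control liver against 39884 in the iFIRKO liver (log2 fold change 0.12, interval 0.10 to 0.15). *Arg1* (chromosome 10, 24915221 to 24927484, reverse strand, 8 exons) encodes liver arginase, which releases urea and returns ornithine. *Arg1* had 58621 normalized reads in the control liver against 63183 in the iFIRKO liver (log2 fold change 0.11, interval 0.09 to 0.13). The summed reads of *Ass1*, *Asl* and *Arg1* were 4.1% fewer in iFIRKO.

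Differences between 2 genes within the same libraries do not depend on how the libraries were scaled to each other. From *Cps1* to *Arg1*, the entry and exit of the cycle, the log2 fold change was higher by 0.49 (Wald counting interval 0.46 to 0.52). From *Cps1* to *Otc* the difference was 0.18 (interval 0.12 to 0.23), and from *Cps1* to its activator gene *Nags* it was 0.24 (interval 0.15 to 0.34). *Otc* and *Ass1* differed by 0.04 (interval -0.02 to 0.09), which includes 0. *Ass1* and *Asl* differed by 0.30 (interval 0.26 to 0.33), while *Asl* and *Arg1* differed by -0.02 with an interval from -0.05 to 0.02. By counting error the steps thus stood at 3 positions, *Cps1* lowest, then *Otc* with *Ass1*, then *Asl* with *Arg1*. These pairs are among 12 computed after the values were seen, and each difference in this paragraph is smaller than 1.5-fold, 0.585 on the log2 scale.

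The read count of *Ass1* could be shared with a copy. The longest coding transcript of *Ass1* matched *Gm5424* at 99.5% identity over 1240 bases, the only alignment of at least 200 bases and 90% identity to a gene elsewhere in the genome for any of the 9. *Gm5424* had 10930 normalized reads in the control liver against 9496 in the iFIRKO liver (log2 fold change -0.20, interval -0.26 to -0.15). Its log2 ratio and that of *Ass1* differed by -0.03, with an interval from -0.09 to 0.03. The 2 rows summed gave -0.17 (interval -0.19 to -0.16). *Ass1* had 15.2 times as many reads as *Gm5424* in control, so this sum could hardly differ from *Ass1* alone. It does not show how reads were assigned between the 2 rows.

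The 3 periportal enzymes outside the cycle also went both ways. *Hal* (chromosome 10, 93488768 to 93519304, forward strand, 20 exons) encodes histidine ammonia-lyase, which removes ammonia from histidine. *Hal* had 24059 normalized reads in the control liver against 21194 in the iFIRKO liver (log2 fold change -0.18, interval -0.22 to -0.14). *Sds* (chromosome 5, 120476526 to 120483932, forward strand, 9 exons) encodes serine dehydratase, which turns serine into pyruvate and ammonia. *Sds* had 17727 normalized reads in the control liver against 19441 in the iFIRKO liver (log2 fold change 0.13, interval 0.09 to 0.17), the highest of the 9. *Gls2* (chromosome 10, 128194457 to 128210004, forward strand, 18 exons) encodes liver-type glutaminase, which frees ammonia from glutamine. *Gls2* had 16199 normalized reads in the control liver against 16227 in the iFIRKO liver (log2 fold change 0.00, interval -0.04 to 0.05). The log2 ratios of *Hal* and *Sds*, which both release ammonia from an amino acid, differed by 0.32 (interval 0.26 to 0.37). Summed over the 3 genes, the reads were 1.9% fewer in iFIRKO.

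Some exons of these genes lie opposite other genes. *Plbd2* shares 21.3% of the exon length of *Sds* on the opposite strand, and it had 2713 and 2294 normalized reads. The antisense gene *Gm11586* shares 15.6% of that of *Nags* with 87.4 and 70.7 normalized reads, *Gm15690* shares 8.3% of that of *Sds* with 12.4 and 7.39, and *Spryd4* shares 2.8% of that of *Gls2* with 1328 and 1257. The libraries were stranded, but no source says that the counting was, so reads in these stretches are uncertain.

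**Figure D2:**
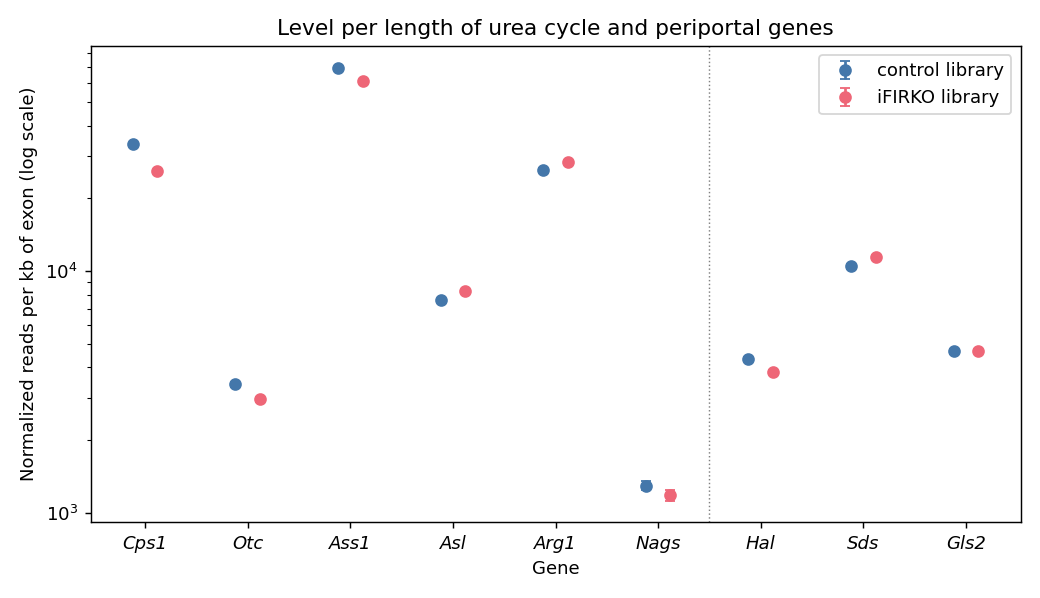
Normalized reads per kb of exon for each gene in the control library (blue) and the iFIRKO library (red), on a log scale, with 95% counting intervals as error bars, most of them smaller than the points. The dotted line separates the urea cycle genes from the other 3. *Ass1* is highest and *Nags* lowest in both libraries, and only *Cps1* and *Arg1* exchange places.

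Levels can be set against each other once divided by the length of all annotated exons. Per kb in the control library, *Ass1* was highest with 69020 normalized reads, followed by *Cps1* with 33667, *Arg1* with 26311, *Sds* with 10464 and *Asl* with 7574. *Gls2* with 4663, *Hal* with 4336, *Otc* with 3412 and *Nags* with 1299 normalized reads per kb completed the order. No neighbours in this order had overlapping counting intervals in either library. In the iFIRKO library *Arg1* with 28359 stood above *Cps1* with 25834, and the other genes kept their places, from *Ass1* with 61294 down to *Nags* with 1181 normalized reads per kb. With the longest coding transcript as the length, *Arg1* stood above *Cps1* in both libraries, with 39689 against 33667 in control, so their order in control depends on the gene model. *Asl* then stood above *Sds* and *Otc* above *Hal*, also in both libraries.

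The 9 genes together took 1.25% of all normalized reads in control (exact binomial interval 1.245% to 1.255%) and 1.12% in iFIRKO (interval 1.119% to 1.128%). The log2 ratio of their sum was -0.17 (interval -0.18 to -0.16). Without *Cps1* the log2 ratio of the sum was -0.06 (interval -0.07 to -0.05), so most of that difference lay in *Cps1*. In bulk tissue, fewer cells of a type and less RNA per cell cannot be told apart.

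**Figure D3:**
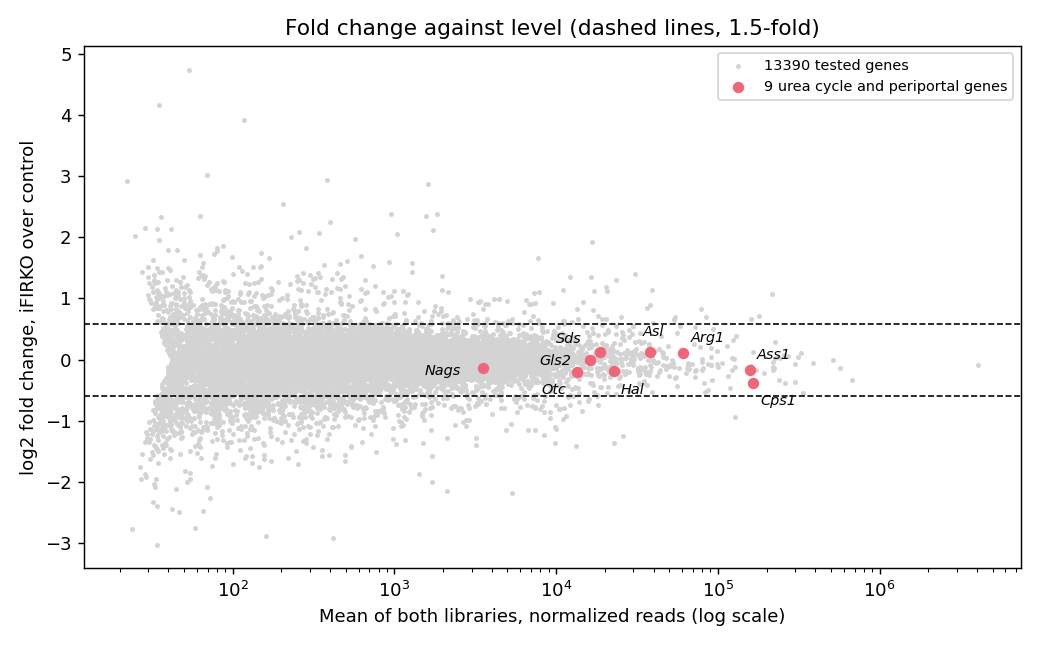
The log2 fold change (iFIRKO over control) of 13390 tested genes in grey against the mean of both libraries in normalized reads on a log scale, with the 9 genes in red. Dashed lines mark 1.5-fold. The 9 genes lie at high levels, from a mean of 3519 normalized reads for *Nags* upwards, and inside the dashed lines.

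The start regions of some of these genes can be read beside their values. RefSeq promoters on GRCm38.p6 were matched for 4 of the 9 genes, *Otc*, *Ass1*, *Nags* and *Hal*, all of them among the 5 with fewer reads in iFIRKO. The sequences of *Otc*, *Hal* and *Nags* are shown because they hold matches to the letters TTNCNNAA, in which N is any base. This is a loose pattern for the motif bound by C/EBP factors, so a match need not be such a motif. These factors are known regulators of urea cycle genes in liver. Each is the 250 bases before the start on the forward strand, 5′ to 3′, from chrX:10252055-10252304, chr10:93488518-93488767 and chr11:102145263-102145512, and the capitals mark matches on either strand.
Otc: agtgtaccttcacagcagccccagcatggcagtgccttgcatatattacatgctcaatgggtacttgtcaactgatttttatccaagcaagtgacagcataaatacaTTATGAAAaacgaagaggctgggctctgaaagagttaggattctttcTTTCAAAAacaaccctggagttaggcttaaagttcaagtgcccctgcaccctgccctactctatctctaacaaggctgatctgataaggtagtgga
Hal: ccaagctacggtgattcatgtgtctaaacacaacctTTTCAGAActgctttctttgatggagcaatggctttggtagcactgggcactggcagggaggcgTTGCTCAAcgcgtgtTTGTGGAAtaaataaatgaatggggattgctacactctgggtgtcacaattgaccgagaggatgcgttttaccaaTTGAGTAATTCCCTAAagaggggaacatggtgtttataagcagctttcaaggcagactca
Nags: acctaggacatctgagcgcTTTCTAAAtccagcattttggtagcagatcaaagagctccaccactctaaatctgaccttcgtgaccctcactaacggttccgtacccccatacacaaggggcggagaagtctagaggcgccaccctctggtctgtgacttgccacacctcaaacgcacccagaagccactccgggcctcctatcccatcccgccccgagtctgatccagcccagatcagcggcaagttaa

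*Hal* held 5 matches to TTNCNNAA, *Otc* 2, *Nags* 1 and *Ass1* 0, and 36.8% of 32851 promoters of the same length held such a match. *Hal* also held TATAAA on the reverse strand from base -28 before the start, letters found in 12.4% of promoters. None of the 4 held TGACG, part of the CREB motif TGACGTCA (17.8% and 1.55% of promoters), TGTTCT, a part of the glucocorticoid receptor motif (16.1%), or CAAAGTCCA, an HNF4 motif (0.384%). Both strands were searched, and TGACG overlaps TGACGTCA. A match is only a match of letters, and factor binding was not measured.

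Carriers, channels and a mitochondrial carbonic anhydrase that serve the cycle had a median log2 fold change of 0.20 over 7 tested genes of 8 listed, none past 1.5-fold. *Slc25a15*, the mitochondrial ornithine and citrulline carrier, had 18731 normalized reads in the control liver against 22118 in the iFIRKO liver (log2 fold change 0.24, interval 0.20 to 0.28). The log2 ratios of *Cps1* and *Slc25a15*, another of the 12 pairs computed after the values were seen, differed by 0.62, and the interval from 0.58 to 0.66 includes the 1.5-fold threshold. *Slc25a13*, the aspartate and glutamate carrier that supplies aspartate for *Ass1*, stood at 0.20, and *Slc25a22*, a glutamate carrier, at 0.47, the highest of this list. Both were named after their values were seen. *Aqp9*, a channel for glycerol and urea, stood at -0.04 and *Car5a*, the carbonic anhydrase that supplies bicarbonate to *Cps1*, at 0.07 (interval -0.03 to 0.18), the latter also named after its value was seen. *Slc25a18* was listed at 0 in both libraries.

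Genes that handle ammonia and glutamate went both ways, from -0.24 to 0.45, with a median of 0.02 over 12 genes and none past 1.5-fold. By counting error 5 of them lay below no difference and 4 above it. *Glud1*, glutamate dehydrogenase, had 40880 normalized reads in the control liver against 45958 in the iFIRKO liver (log2 fold change 0.17, interval 0.14 to 0.20). *Slc38a3*, a glutamine transporter, had 40400 and 34142 normalized reads (log2 fold change -0.24, interval -0.27 to -0.21). *Gpt2* and *Got2*, mitochondrial transaminases of alanine and aspartate, stood at 0.45 (interval 0.41 to 0.49) and 0.27 (interval 0.23 to 0.31), and were named after their values were seen. Glutamine is split by glutaminase near the portal vein and made again by glutamine synthetase (*Glul*) near the central vein. *Glul* had 26414 and 27001 normalized reads (log2 fold change 0.03, interval -0.003 to 0.07). Its log2 ratio differed from that of *Gls2* by 0.03 with an interval from -0.03 to 0.08. *Oat*, which uses the ornithine that arginase releases and is a pericentral gene, stood at -0.18, or -0.29 relative to *Arg1* (interval -0.34 to -0.25).

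*Arg2*, the other arginase, had 17.3 normalized reads in the control liver against 2.01 in the iFIRKO liver, both below the minimum of 41.8. *Sdsl*, a paralog of *Sds*, stood at 0.12 and *Cad*, whose protein holds a related carbamoyl phosphate synthetase used for pyrimidines, at -0.12, both with intervals that include no difference.

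The steps after *Hal* in histidine breakdown gave a median of -0.04 over 3 genes. *Uroc1*, urocanase, stood at -0.04 and *Ftcd*, which passes the last carbon unit to folate, at 0.09. The log2 ratio of *Hal*, iFIRKO over control, was lower than that of *Uroc1* by 0.14 (interval 0.10 to 0.19).

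Among 9 tested genes of serine, glycine and threonine breakdown, 2 were more than 1.5-fold lower and none higher, with a median of 0.02. Over all tested genes 7.29% were lower and 4.46% higher. *Agxt*, the peroxisomal enzyme that detoxifies glyoxylate with alanine or serine as partner, had 9331 normalized reads in the control liver against 5479 in the iFIRKO liver (log2 fold change -0.77, interval -0.84 to -0.70). *Gcat*, a mitochondrial enzyme of threonine breakdown, had 2873 and 1710 normalized reads (log2 fold change -0.75, interval -0.87 to -0.63). *Shmt1* and *Shmt2*, which interconvert serine and glycine, stood at -0.07 and 0.04.

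The other breakdown pathways held 1 gene past 1.5-fold, and 1 more lay at the threshold. Over all tested genes 11.7% passed in either direction. Of 12 genes for phenylalanine, tyrosine and tryptophan none passed, with a median of -0.01. *Afmid*, kynurenine formamidase of tryptophan breakdown, had 8709 and 5815 normalized reads (log2 fold change -0.582, interval -0.651 to -0.514), just short of the threshold, and it passed under each of the 3 other scalings tried. It was named after its value was seen. There *Tat*, tyrosine aminotransferase, stood at -0.04 and *Hpd*, the next enzyme of tyrosine breakdown, had 63965 and 47698 normalized reads (log2 fold change -0.42, interval -0.45 to -0.40). Of 8 genes for methionine and cysteine only *Csad*, which makes hypotaurine from cysteine sulfinate, passed, with 14744 and 23495 normalized reads (log2 fold change 0.67, interval 0.63 to 0.71). *Bhmt* and *Mat1a* of the methionine cycle stood at 0.05 and 0.38. Of 11 genes for proline, lysine and branched-chain amino acids none passed, with *Aldh7a1* and *Aass* of lysine breakdown at 0.05 and 0.12.

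None of 13 regulators passed 1.5-fold, with a median of 0.00 and a range from -0.43 to 0.32. By counting error 6 lay below no difference, 2 above it and 5 could not be told from it. *Hnf4a* and *Cebpa*, transcription factors that maintain hepatocyte genes, stood at -0.04 (interval -0.08 to -0.01) and -0.07 (interval -0.13 to -0.01). *Ppargc1a*, a coactivator of fasting genes, stood lowest at -0.43 (interval -0.71 to -0.17). *Foxa2* stood at -0.30, *Cebpb*, another C/EBP factor, at -0.26 and *Nr3c1*, the glucocorticoid receptor, at -0.25, each with an interval below 0. *Sirt5*, a mitochondrial deacylase, stood highest at 0.32 (interval 0.05 to 0.59), and *Gcgr*, the glucagon receptor, stood at 0.09 (interval 0.03 to 0.15). These 6 were named after their values were seen.

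**Figure D4:**
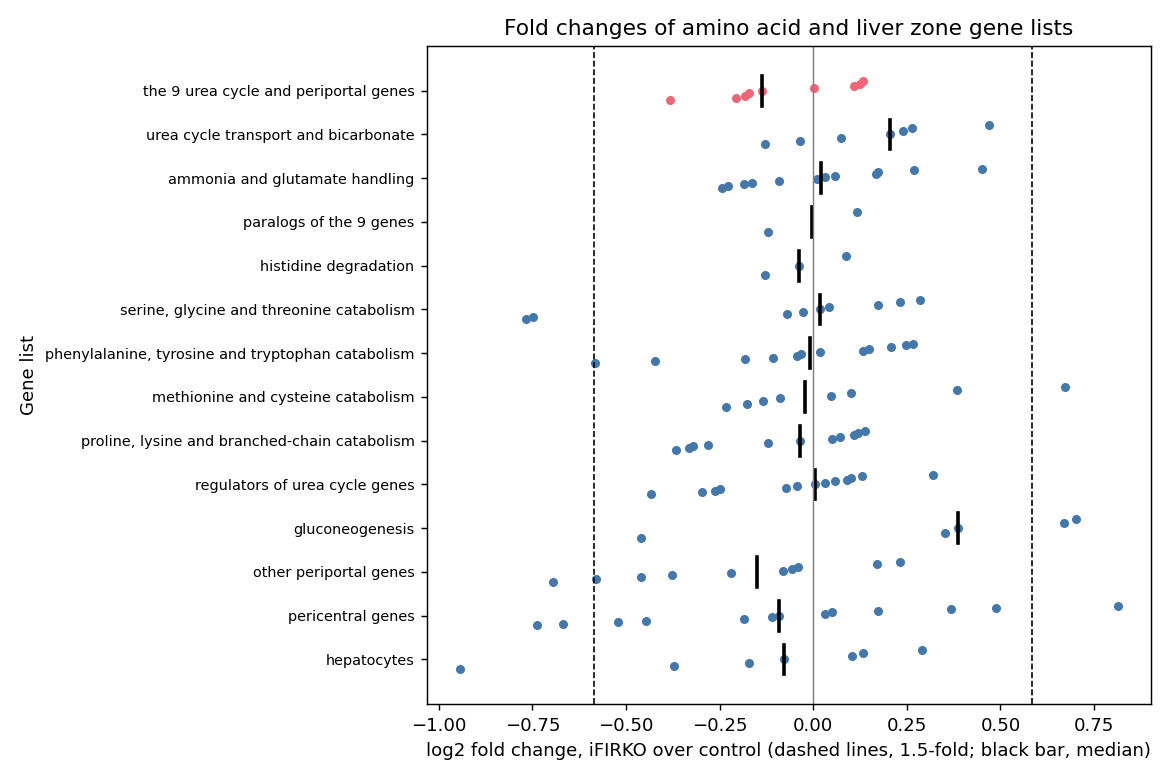
Log2 fold changes (iFIRKO over control) of the tested genes of each list, one point per gene, with the median as a black bar and 1.5-fold as dashed lines. The 9 genes (red) lie between -0.38 and 0.13, and the genes past the dashed lines belong to other lists.

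The 9 genes were also set beside zone and cell type markers. Over all 13390 tested genes, 4.46% were more than 1.5-fold higher in iFIRKO and 7.29% more than 1.5-fold lower. Of 10 other periportal genes, 1 was more than 1.5-fold lower and none higher, with a median of -0.15. *Hsd17b6* at -0.581 lay just short of the threshold, so that 2 were lower under each of the 3 other scalings. By counting error 6 of the 10 lay below no difference and 2 above it. Their summed level went from 262925 to 216748 normalized reads, a log2 ratio of -0.28 beside -0.17 for the 9 genes. Most of that difference lay in *Pck1*, which went from 137023 to 99529. Of 13 pericentral genes 1 was higher and 2 were lower, with a median of -0.09, and their sum went from 225934 to 185987 (log2 ratio -0.28). Most of this difference lay in *Cyp2e1*, which went from 98550 to 68611. *Pck1* and *Cyp2e1* were named here after their values were seen. Of 7 hepatocyte genes 1 was lower, with a median of -0.08, and their summed level went from 5489650 to 5183274 normalized reads. Markers of several other cell types differed by more. The summed level of 9 Kupffer cell and macrophage genes was 34676 normalized reads in control and 22341 in iFIRKO with 6 of 9 lower, and that of 7 endothelial genes 10400 and 7582 with 2 lower. All 3 tested neutrophil genes of 5 (609.9 and 233.9 in sum) and 3 of 4 tested T, NK and B cell genes of 10 (490.9 and 217.6) were lower. Among the latter, *Gzma* rested on 25 and 12 read pairs, and its interval from -2.17 to 0.006 includes 0. All 6 tested erythroid genes of 7 were higher (13473 and 27016). None of 8 stellate genes (12190 and 13138) or of 5 cholangiocyte genes (2347 and 2026) passed. Of the adipocyte markers *Lep* and *Retn* were at 0 in both libraries and *Cidec* alone passed the minimum, with 17.9 and 108.4 normalized reads. The part of these differences in the values of the 9 genes was not tested.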

How the data were processed

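Stranded mRNA libraries of bulk liver, 1 per genotype, were grouped by the sample titles. For each gene symbol the authors deposited a normalized read count as its log2, with small values listed as 0. The iFIRKO values carried no column label and were assumed to be the same quantity as in control. The labels give the build mm10, which is GRCm38, while the aligner, counter and scaling are not given in the sources used here. Of 53342 rows, 101 repeat a symbol, and the first row was used. The commonest low value (1.987 in control, 2.013 in iFIRKO) was taken as 1 read pair. About 45% of values under 20 pairs were then whole to within 0.01 pairs, so depths are estimates.

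Values were returned to the linear scale. Genes that reached a CPM of 1 (41.8 normalized reads) in at least 1 library were examined for a fold above 1.5, the study's threshold, with a pseudocount of 4.18. No p-value was computed. Intervals are Clopper-Pearson intervals at 95% on read pairs, and Wald intervals for differences between genes. They cover counting error only, and PCR reads are not independent molecules, so even that error may be larger than the intervals show. Gene models came from GENCODE M21, and copies were sought with blastn 2.17.0. Scripts were tested on simulated data.

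All 9 genes are named, with the 2 most abundant genes of each pathway list and up to 4 past 1.5-fold. Markers are given mostly as counts and sums. Members and lists were chosen with earlier results of these data known, and the comparison with 1652 genes at or above the reads of *Nags* was chosen after values were seen. Alternatives were other pseudocounts, minimums, scalings, a fold of 2 and summed repeated symbols. *Tf* was not analysed here. The result of 1 listed gene is not reported here. Software versions were matplotlib 3.10.9, scipy 1.17.1, pandas 2.3.3, numpy 2.4.6 and Python 3.11.15.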

Additional observations from a re-analysis of the deposited data

How the results depend on the processing

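None of the 9 genes passed the fold threshold under any of the 9 alternatives tried, and no single log2 fold change left its counting interval. The median log2 fold change stayed within the typical counting interval of a gene. Under median-ratio scaling, trimmed mean scaling and a total without the 20 most abundant genes, *Gls2* moved from just above 0 to just below it, so that 6 instead of 5 of the genes lay below 0. These scalings shift all iFIRKO values by 0.009 to 0.012 on the log2 scale. Each takes *Afmid* and *Hsd17b6* past 1.5-fold lower, so that 1 instead of 0 aromatic amino acid genes and 2 instead of 1 other periportal genes were lower, and no other list count changed with scaling. With a fold above 2, no pathway or zone list held a called gene. Calls then remained only for 3 neutrophil, 2 T, NK and B cell, 2 erythroid and 1 adipocyte genes. A minimum CPM of 5 left 2 neutrophil, 5 erythroid, 0 T, NK and B cell and 0 adipocyte genes. A pseudocount of a CPM of 1 left 5 Kupffer cell and 2 T, NK and B cell genes. Without a minimum, some low genes such as *Arg2* were added. Counting the lists under the alternatives was added after the values were seen. The share of reads on the 9 genes within the iFIRKO library cannot change when all its values are divided by a single factor. Taken over the control total instead, the rescaled iFIRKO reads of the 9 genes were 1.1044% with median-ratio scaling and 1.1054% with trimmed mean scaling. Leaving the 20 most abundant genes out of each library's total gave shares of 1.6693% in control and 1.4732% in iFIRKO. These are larger shares of smaller totals. Counts over all genes moved with the treatment of low genes, from 597 higher and 976 lower to 1956 and 2617 without a minimum, 371 and 576 with a pseudocount of a CPM of 1, 288 and 440 with a minimum CPM of 5, and 209 and 267 with a fold above 2. No paired analysis was possible because neither group was replicated. No replicate could be left out, and the spread between mice is unknown.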

Other observations

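Gluconeogenesis uses the carbon that amino acid breakdown leaves, and 2 of its 5 genes stood above 1.5-fold in iFIRKO, with a median log2 fold change of 0.39. Over all tested genes 4.46% were higher, and 3.57% of those with at least as many reads as *Nags*. *Pcx*, pyruvate carboxylase, had 19252 normalized reads in the control liver against 31344 in the iFIRKO liver (log2 fold change 0.70, interval 0.67 to 0.74). *Fbp1*, fructose-1,6-bisphosphatase, had 41561 and 66101 normalized reads (log2 fold change 0.67, interval 0.64 to 0.70). *Pck1*, which makes phosphoenolpyruvate and is a periportal gene, had 137023 and 99529 normalized reads (log2 fold change -0.46, interval -0.48 to -0.45).

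Among pericentral genes *Aldh3a2*, a fatty aldehyde dehydrogenase, stood at 0.81, whereas *Cyp27a1* of bile acid synthesis and *Cyp1a2* stood at -0.74 and -0.67. The other periportal genes lay mostly below 0, 8 of 10, with the highest at 0.23. There *Ctsc*, cathepsin C, stood at -0.69. *Apoa1* stood at -0.94 among the hepatocyte genes. These single genes were named because they passed 1.5-fold, and they rest on 1 library per group.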
